A study of Caenorhabditis elegans with 12 samples.

Results

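Skipped exons whose length is not a multiple of 3 were followed by RNA-seq in whole L3 larvae of Caenorhabditis elegans, in 12 libraries. They are the exons whose skipping leaves the downstream codons in another reading frame where the exon is coding. They were taken from the deposited Ensembl catalogue of splicing events, as skipped-exon events whose alternative exon, present in the included form only, had a length that 3 does not divide. Of 601 skipped-exon events among 2619 events of the catalogue, 154 met this rule and 447 kept the frame. The catalogue gives no coding frame, so a member inside a UTR or a noncoding transcript was not told apart from a coding one.

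The study compared larvae carrying an altered spliceosomal helicase with wild-type N2 larvae, and its title asks about proofreading at closely spaced 3′ splice sites. Bleach-isolated embryos of every group were grown for 34 h at 20 °C on OP50 bacteria, and total RNA was depleted of ribosomal RNA and read as paired 150 nt reads. The groups of 3 libraries each were sacy-1(tn1385), strain DG3430, numbered az024 to az026; mog-5(az192), strain SZ454, numbered az044 to az046; and the wild type N2 as N2 az02, numbered az021 to az023, and N2 az04, numbered az041 to az043. Each mutant was 1 strain with 1 allele. The labels do not state which N2 set belongs with which mutant, so sacy-1 was set against N2 az02 and mog-5 against N2 az04 by library number. Nor do they tie each library to a culture of its own, so the p-values measure only how far these libraries spread, and that spread may be technical. In RNA of whole worms, a shift in the mix of cell types and a change of splicing within cells cannot be told apart. This holds for every inclusion level below.

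A skipped exon is joined to both neighbours in one mRNA and left out, with its flanking introns removed as 1 long intron, in the other. Where the exon's length breaks the codon count, skipping it, or at some exons including it, can bring a premature stop codon into frame. mRNAs with such a stop are often degraded by nonsense-mediated decay. The steady level of the form with the stop can then lie below its rate of production. SACY-1 corresponds to human DDX41, which belongs to the DEAD-box helicases and binds late spliceosomes. MOG-5 corresponds to yeast Prp22, the helicase that releases the spliced mRNA and proofreads exon joining.

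Inclusion is given below as percent spliced in, which is the share of the included form in the 2 deposited scores of an event. Read totals were not used here. The depth of each value is therefore unknown, and no counting interval is given. The deposited values pair events with no gene, and the gene tables at hand are of another genome build, so exons are named by position on build ce10 and by length.

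The 154 events held 152 distinct exons at 141 loci, where overlapping members on 1 strand count as 1 locus. In 10 loci several members overlapped, 23 members in all, so members of such a locus share introns or an exon. Of the lengths, 77 left a remainder of 1 and 77 a remainder of 2 after division by 3. Chromosome I carried 20 members, II 26, III 33, IV 27, V 26 and X 22, with 74 on the plus and 80 on the minus strand. The exons were 25 to 950 nt long with a median of 126.5 nt, against 3 to 11688 nt and a median of 99 nt for skipped exons that keep the frame. The intron before the exon had a median of 235.5 nt, the one after it 239.5 nt and the intron that removes the exon 808.5 nt. A flanking intron shorter than 60 nt was present in 37 of the 154.

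Frame-shifting exons were spread over the whole scale of inclusion. All 12 libraries listed 140 of the 154. Over these, mean inclusion in 12 libraries had a median of 56.1% (quartiles 19.3% and 94.5%). Mostly skipped exons, with mean inclusion under 10%, numbered 22 (15.7%), and mostly included ones, at 90% or more, numbered 41 (29.3%). The remaining 77 (55.0%) were used in part. Of the 426 frame-keeping exons listed in all 12, 76 (17.8%) were mostly skipped, 82 (19.2%) mostly included and 268 (62.9%) used in part, with a median of 46.9%. Exons used in part were thus the most numerous in either class, but this bin covers most of the scale, from 10% to 90%. No test of the difference between the classes was made.

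**Figure D1:**
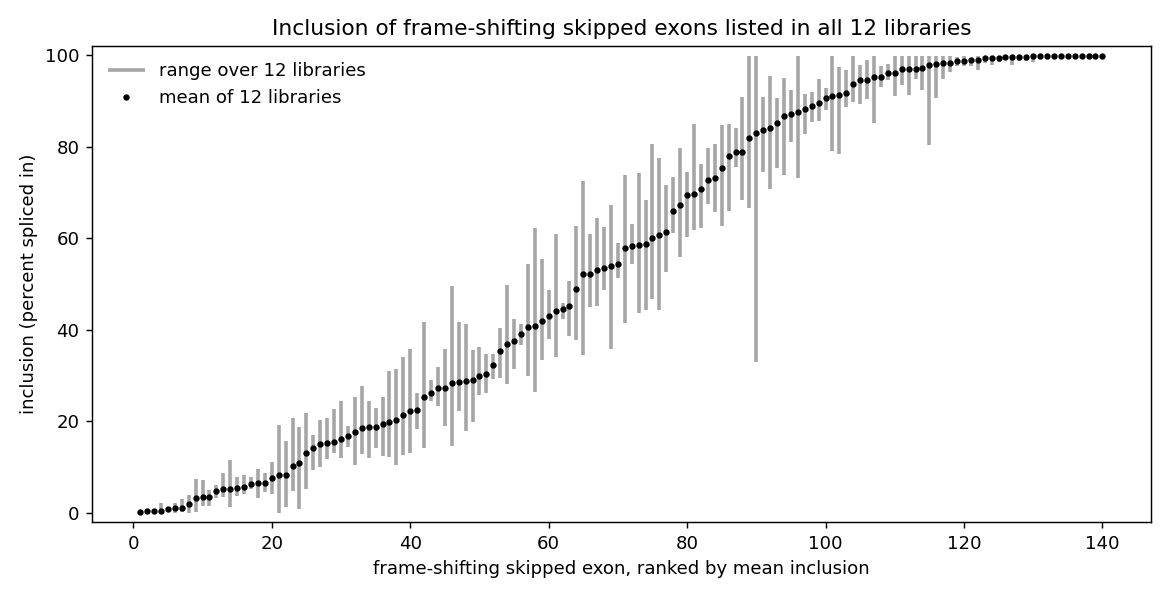
Inclusion in percent of the 140 frame-shifting skipped exons listed in all 12 libraries, ranked by mean inclusion. Points are means and grey bars run from the lowest to the highest library. The median range is 9.15 points, and the longest bar, 66.95 points, belongs to the 88 nt exon of chromosome X.

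How far a member kept its level across all 12 libraries differed between exons used in part and those near either end of the scale. The range from lowest to highest library had a median of 9.15 points, was under 10 points in 73 members and reached 20 points in 29. It was wider in members used in part (median 15.9 points, n = 77) than in the mostly skipped and mostly included ones (median 3.49 points, n = 63). Inclusion of exactly 99.9% in every library, the commonest upper value of the files, was found in 6 members. Within groups, the SD over 3 libraries averaged 2.75 points in sacy-1, 2.30 in mog-5, 2.99 in N2 az02 and 2.20 in N2 az04.

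Length went with inclusion in no simple order. Median inclusion was 40.6% for the 17 exons of up to 50 nt, 45.2% for the 47 of 51 to 100 nt, 88.2% for the 29 of over 100 and up to 200 nt and 44.6% for the 47 longer ones. Across the 140 exons Spearman's rho was 0.16 between length and inclusion and 0.098 between the length of the skipping intron and inclusion. Both are descriptions over exons that share the same libraries.

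The shortest exons were used at quite different levels. An exon of 25 nt at chrIII:11423088-11423112 had a mean inclusion of 83.7%, and the 28 nt exons at chrI:10051985-10052012 and chrX:7940749-7940776 had 61.3% and 69.7%. A 28 nt exon at chrII:9259530-9259557 had 30.4%, and a 26 nt exon at chrIV:17300180-17300205, listed in 10 libraries, ran between 23.8% and 38.6%. Among the longest, the 950 nt exon at chrI:11522116-11523065 was included to 53.0%, the 691 nt exon at chrIV:8184681-8185371 to 19.5% and the 682 nt exon at chrV:8422035-8422716 to 22.4%.

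At several frame-shifting exons the included and the excluded form scored about equally in larvae of every genotype. The exon nearest to 50% among those with a range of at most 20 points was the 668 nt exon at chrIII:12401295-12401962. Its mean was 52.2% and its range 15.9 points, with group means of 54.5% in sacy-1, 46.8% in mog-5, 57.5% in N2 az02 and 50.2% in N2 az04. The 950 nt exon named above and exons at chrII:4374551-4374701 (151 nt, 53.6%), chrIII:882095-882201 (107 nt, 54.5%), chrIII:9047598-9047653 (56 nt, 45.2%) and chrIV:14073903-14074263 (361 nt, 44.6%) followed. The steadiest of these, the 361 nt exon, moved by only 3.47 points over 12 libraries, although its 2 scores summed to only 82 to 196.8 of 1000. For the 151 nt exon the sums were 236.7 to 415.2, so at both exons the 2 forms held a minor part of the score.

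At the other end, some catalogued exons were almost never included. Among members listed in all 12 libraries, the lowest were a 34 nt exon at chrI:3543778-3543811 (mean 0.155%), a 35 nt exon at chrIV:5848794-5848828 (0.376%), a 92 nt exon at chrX:2716558-2716649 (0.411%), a 91 nt exon at chrIV:5445325-5445415 (0.416%) and a 176 nt exon at chrIII:1950812-1950987 (0.783%). Among those listed in fewer, a 92 nt exon at chrI:9573661-9573752 stood at 0.1% in all 11 libraries that listed it. A 202 nt exon at chrIII:9890941-9891142 did so in all 4 (3 of sacy-1 and 1 of N2 az04) and a 164 nt exon at chrV:7325095-7325258 in 1, of sacy-1. With depth unknown, so few values do not show how rarely these last exons are included.

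The included and excluded scores of a member did not always add up to 1000, and the sources used here do not explain the remainder. The median sum over libraries was at least 950 in 100 of the 154 members and under 500 in 14. Of the 154, 75 shared an intron with another event of the catalogue, 32 with another skipped exon, 24 with an alternative 5′ splice site, 23 with a retained intron and 21 with an alternative last exon. For these members inclusion does not stand apart from the other choice at the same introns. The 14 members missing from at least 1 library were not evenly placed on the scale: 6 were never under 90% where listed and 3 never at 10% or more.

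In sacy-1 larvae 1 frame-shifting exon changed strongly and nearly all others stayed close to N2. An event was called when limma's adjusted p over all tested events of the catalogue was below 0.05 and the groups differed by at least 15 points. Of 140 members tested against N2 az02, 1 (0.714%) was called, and of all 2382 events tested 17 were called (0.714%), so the members' share equals the background. Differences were within 5 points in 112 of 140 members and within 10 points in 131. The median difference, sacy-1 minus N2 az02, was -0.018 points, with 61 higher, 70 lower and 9 equal.

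The called exon was the 88 nt exon on the minus strand at chrX:17386800-17386887. Its inclusion was 36.8%, 33.8% and 32.95% in sacy-1, against 99.9%, 98.96% and 99.9% in N2 az02. No other library approached the sacy-1 level: mog-5 gave 99.2%, 99.9% and 99.3%, and N2 az04 gave 98.9%, 98.6% and 97.6%. Inclusion fell by 65.1 points in sacy-1 (SE 1.15, limma adjusted p = 0.000107), while in mog-5 the difference from N2 az04 was 1.06 points (limma adjusted p = 0.539). In N2 the included form thus held nearly all of the 2 scores, and in sacy-1 the excluded form held the larger part. How these shares relate to numbers of transcripts is not known.

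The difference between both mutant effects on this exon, tested as the interaction in 1 limma fit of all 12 libraries, was -66.1 points (SE 1.26, limma adjusted p = 1.52e-08). It was the only 1 of 140 members called for the interaction, against 0.252% of all 2380 events tested. The exon lies between introns of 1384 and 784 nt, and skipping it removes 2256 nt in 1 piece. Its 2 scores summed to 765 to 852 of 1000 in sacy-1, against 998 to 1000 in N2 az02, and the part of this in the result was not tested.

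The same 2256 nt intron belongs to the included form of an alternative last exon event. That form made up 96.0%, 88.9% and 78.8% in sacy-1, against 16.7% and 0.1% in the N2 az02 libraries that listed it. It made up 25%, 0.1% and 10% in mog-5, against 25%, 66.7% and 80.0% in N2 az04. The sacy-1 values lay above those of N2 az02 and mog-5 but overlapped those of N2 az04. Because the event was missing from an N2 az02 library, it was left out of the main sacy-1 test, which needs all 6 libraries.

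**Figure D2:**
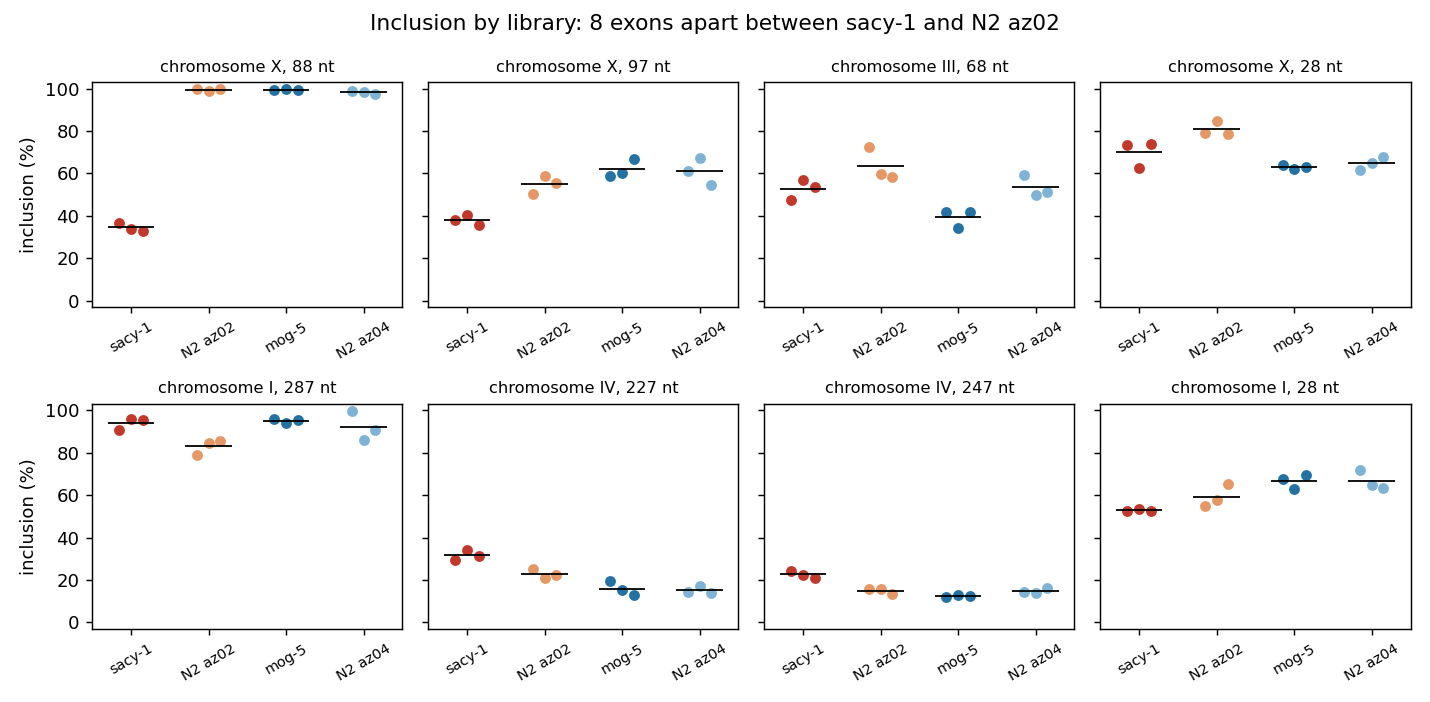
Inclusion in percent by library for the 8 exons with the largest difference among those whose sacy-1 and N2 az02 libraries did not overlap, at most 1 per locus. Each point is a library, lines are means of 3, and mog-5 and N2 az04 are shown beside them. The 88 nt exon of chromosome X stands at 32.95% to 36.8% in sacy-1 and above 97% in all other groups.

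With this exon included, sacy-1 and N2 az02 did not overlap in 28 of 140 members (20.0%, against 16.3% of all events tested and 17.4% of frame-keeping skipped exons). Of these, 18 lay lower in sacy-1 (background 7.68%) and 10 higher (background 8.61%). Without it there were 27, with 17 lower. At an unadjusted p below 0.05 limma gave 18 members (12.9%), against 12.6% of all events. A difference of 15 points or more was found in 3 members, the 88 nt exon among them, all lower in sacy-1, against 4.11% of all events in either direction and 1.81% lower.

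The second of these was a 97 nt exon at chrX:11998243-11998339. It had 38.2%, 40.4% and 35.85% in sacy-1, against 50.5%, 58.9% and 55.6% in N2 az02. Both mog-5 (58.9%, 60.2% and 66.9%) and N2 az04 (61.2%, 67.35% and 54.6%) were also above every sacy-1 library. The difference from N2 az02 was -16.9 points (SE 2.65, limma adjusted p = 0.102), so it was not called. It was called against N2 az04, at -22.9 points with limma adjusted p = 0.0344, and against all 6 N2 libraries, at -19.9 points with limma adjusted p = 0.0355.

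The third was a 155 nt exon at chrV:8971828-8971982, with 72.2%, 74.2% and 66.7% in sacy-1, against 99.9%, 67.0% and 99.9% in N2 az02. These groups overlapped, because 1 N2 az02 library was as low as sacy-1 (difference -17.9 points, SE 10.7, limma adjusted p = 0.64).

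Other exons whose sacy-1 and N2 az02 libraries stood apart differed by 11 points or less, and none was called. Lower values were found at the 68 nt exon chrIII:2011034-2011101, which had 47.3%, 56.9% and 53.5% in sacy-1, against 72.45%, 59.8% and 58.3% in N2 az02 (-10.9 points, SE 5.06, limma adjusted p = 0.522). Against N2 az04 the difference of this exon was -0.953 points. The 28 nt exon at chrX:7940749-7940776 had 73.6%, 62.8% and 73.8% in sacy-1, against 79.1%, 84.95% and 78.7% in N2 az02 (-10.9 points, SE 3.95, limma adjusted p = 0.387). Against N2 az04 its difference turned to 5.28 points, since N2 az04 was itself low. The 28 nt exon at chrI:10051985-10052012 had 52.6%, 53.5% and 52.6% in sacy-1, against 54.8%, 57.6% and 65.5% in N2 az02 (-6.39 points, SE 3.08, limma adjusted p = 0.535).

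Higher values in sacy-1 were found in the other direction at 3 long exons. The 287 nt exon at chrI:1670971-1671257 had 90.7%, 95.8% and 95.5% in sacy-1, against 79.1%, 84.8% and 85.7% in N2 az02 (10.8 points, SE 2.52, limma adjusted p = 0.198). Here N2 az04, with 99.9%, 86.2% and 90.5%, reached the sacy-1 levels. The 227 nt exon at chrIV:14787474-14787700 had 29.3%, 34.15% and 31.6% in sacy-1, against 25.2%, 20.9% and 22.6% in N2 az02 (8.79 points, SE 1.79, limma adjusted p = 0.147). Against N2 az04, which had 14.5%, 17.35% and 13.75%, the same exon was called at 16.5 points with limma adjusted p = 0.0135.

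The 247 nt exon at chrIV:7790487-7790733 had 24.5%, 22.55% and 21.2% in sacy-1, against 15.9%, 15.6% and 13.4% in N2 az02 (7.75 points, SE 1.19, limma adjusted p = 0.102). Against N2 az04 the sacy-1 difference was 7.96 points (limma adjusted p = 0.0240), and against all 6 N2 libraries 7.86 points (limma adjusted p = 0.00431). Both passed the p threshold but not the minimum of 15 points. In mog-5 the exon had 12.05%, 13.1% and 12.3%, against 14.2%, 14.1% and 16.02% in N2 az04 (-2.26 points, limma adjusted p = 0.369). Its groups stood apart in opposite directions in both mutants. The interaction was 10.01 points (SE 1.40, limma adjusted p = 0.0220), past the p threshold but under the minimum of 15 points.

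In mog-5 larvae no frame-shifting exon met the criteria. Of 145 members tested against N2 az04, 0 were called by limma, against 0.04% (1 of 2498) of all events, and the smallest limma adjusted p was 0.171. Limma on arcsine-transformed proportions also called 0, and at an unadjusted p below 0.05 limma gave 22 (15.2%), against 10.2% of all events. No member differed by 15 points or more, against 2.12% of all events, and 123 of 145 were within 5 points.

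The mog-5 and N2 az04 libraries did not overlap in 26 of 145 members (17.9%, against 13.8% of all events and 16.8% of frame-keeping skipped exons). Of these, 15 were lower in mog-5 (background 6.29%) and 11 higher (background 7.53%). Over all tested members the median absolute difference was 1.41 points, against 1.09 points over all events and 1.59 points over frame-keeping skipped exons.

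The widest of these differences was at the 68 nt exon chrIII:2011034-2011101, which also stood apart in sacy-1. It had 41.7%, 34.4% and 41.8% in mog-5, against 59.3%, 49.99% and 51.3% in N2 az04 (-14.2 points, SE 3.62, limma adjusted p = 0.302). The 25 nt exon at chrIII:11423088-11423112 had 90.1%, 90.3% and 90.8% in mog-5, against 80.3%, 83.4% and 74.6% in N2 az04 (10.9 points, SE 2.47, limma adjusted p = 0.279). Its mog-5 libraries were within 1 point of each other and above every library of the other groups (74.6% to 89.1%).

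A 628 nt exon at chrIII:933828-934455 had 33.8%, 28.3% and 29.4% in mog-5, against 24.7%, 20.9% and 17.1% in N2 az04 (9.57 points, SE 2.61, limma adjusted p = 0.331). Its 2 scores summed to as little as 166.7 of 1000, and in sacy-1 its libraries spread over 20.0%, 31.25% and 41.7%. The 74 nt exon at chrV:277968-278041 had 91.2%, 85.7% and 78.5% in mog-5, against 97.4%, 91.3% and 91.7% in N2 az04 (-8.31 points, SE 3.96, limma adjusted p = 0.596). The highest mog-5 library lay just below the lowest N2 az04 library.

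The 131 nt exon at chrV:7846464-7846594 had 22.1%, 25.3% and 28.0% in mog-5, against 29.6%, 33.5% and 35.75% in N2 az04 (-7.79 points, SE 2.35, limma adjusted p = 0.376). The 64 nt exon at chrI:9614332-9614395 had 30.45%, 29.6% and 35.5% in mog-5, against 28.0%, 24.9% and 25.1% in N2 az04 (5.88 points, SE 1.997, limma adjusted p = 0.440). For both of these exons the difference did not hold against N2 az02, where it was 0.20 and -0.723 points.

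The 254 nt exon at chrIII:9864219-9864472 had 69.0%, 74.5% and 73.7% in mog-5, against 67.4%, 67.6% and 65.97% in N2 az04 (5.43 points, SE 1.69, limma adjusted p = 0.387). The 52 nt exon at chrV:10238267-10238318 had 83.95%, 82.0% and 82.9% in mog-5, against 90.8%, 87.9% and 86.3% in N2 az04 (-5.36 points, SE 1.37, limma adjusted p = 0.302). In sacy-1 the same 52 nt exon had 87.7%, 87.3% and 81.1%, against 91.2%, 91.15% and 92.4% in N2 az02. It was thus lower in both mutants, in every library, than in the N2 set of the same number. The N2 sets also parted at this exon, with every N2 az04 library below N2 az02. The sacy-1 libraries at 87.7% and 87.3% lay inside the range of N2 az04. Against N2 az04 the sacy-1 difference was -2.99 points (limma adjusted p = 0.592). Against N2 az02 the mog-5 difference was -8.61 points (limma adjusted p = 0.0177), past the p threshold but under the minimum difference.

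**Figure D3:**
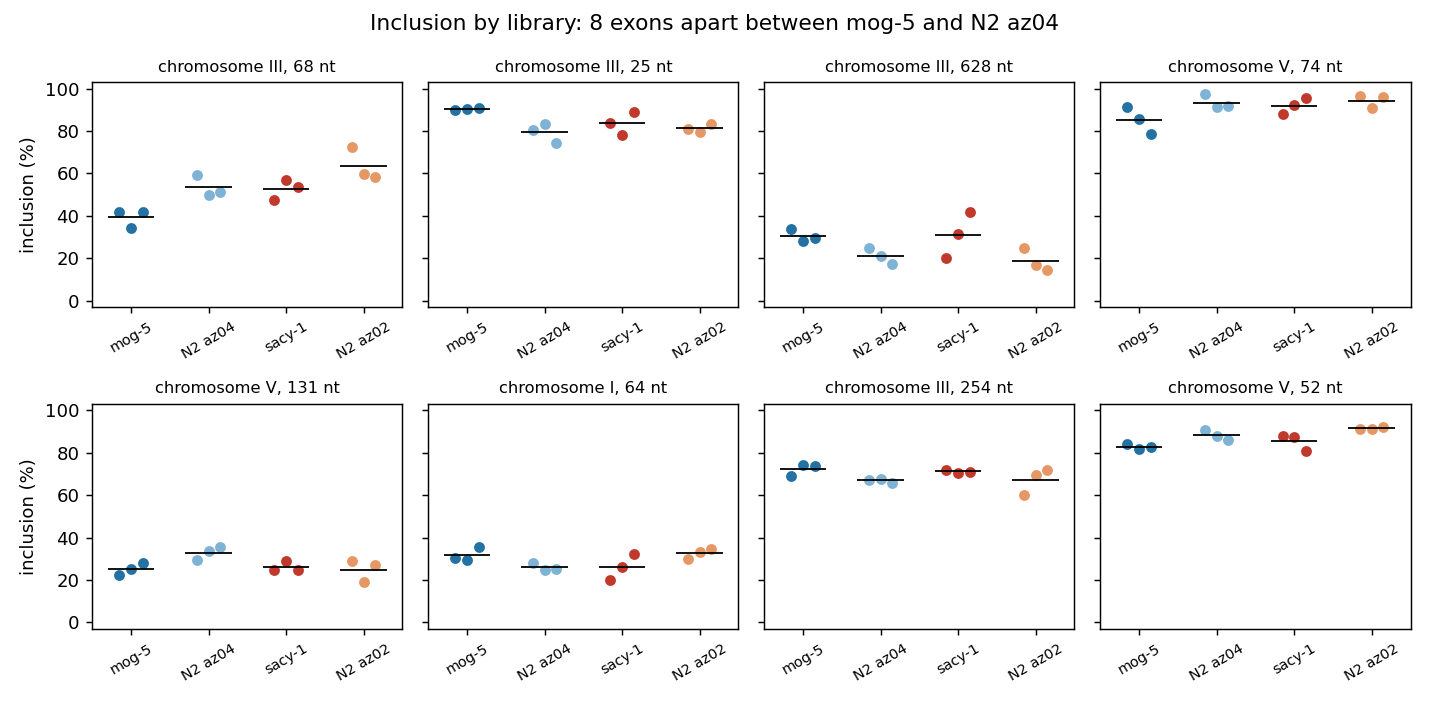
Inclusion in percent by library for the 8 exons with the largest difference among those whose mog-5 and N2 az04 libraries did not overlap, at most 1 per locus. Each point is a library and lines are means of 3. The gaps are between 5.36 and 14.2 points, and for several exons the sacy-1 and N2 az02 libraries span the same levels.

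Set side by side over the 140 members listed in all 12 libraries, 42 were lower in both mutants and 36 higher in both. In 28 sacy-1 was lower and mog-5 higher, in 25 sacy-1 was higher and mog-5 lower, and 9 had no difference in at least 1. Each comparison used its own N2 set.

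**Figure D4:**
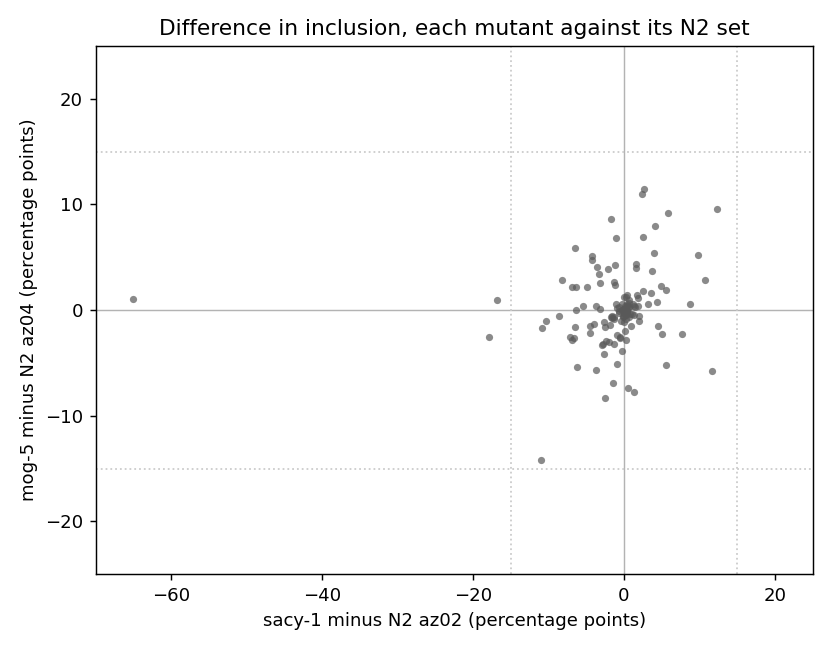
Difference in inclusion in percentage points, sacy-1 minus N2 az02 on the horizontal axis and mog-5 minus N2 az04 on the vertical axis, for 140 frame-shifting skipped exons. Dotted lines mark 15 points. Most exons sit near the origin, and the single point at the far left (-65.1, 1.06) is the 88 nt exon of chromosome X.

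Of the members, 8 stood apart from N2 in both comparisons, or 5.71% (against 4.03% of all events). On the same side were 6, or 4.29% (against 3.36% of all events), and none of these 6 was called in either. Lower in both were the 68 nt and 52 nt exons of chromosomes III and V named above, a 205 nt exon at chrX:10781090-10781294, an 80 nt exon at chrII:166071-166150 and a 28 nt exon at chrII:9259530-9259557. A 280 nt exon at chrX:11036988-11037267 was higher in both, by 1.76 points in sacy-1 and 1.41 points in mog-5. The opposite sides were taken by the 247 nt exon of chromosome IV and the 88 nt exon of chromosome X.

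Taking all 6 mutant libraries against all 6 N2 libraries, 1 of 140 members did not overlap (0.714%, against 1.85% of all events). This was the 205 nt exon of chromosome X, lower in the mutants, as 0.882% of all events were. It had 92.4%, 93.1% and 89.3% in sacy-1, against 96.85%, 95.7% and 95.6% in N2 az02 (-4.46 points, SE 1.17, limma adjusted p = 0.227). In mog-5 it had 94.1%, 93.2% and 94.8%, against 97.8%, 95.2% and 95.6% in N2 az04 (-2.14 points, SE 0.884, limma adjusted p = 0.539). The difference was small beside the exon's high level, but no mutant library reached the lowest N2 library.

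The 53 nt intron before that 205 nt exon, chrX:10781037-10781089, is listed separately as a retained intron. Retention was 70.1% ± 1.8 in sacy-1, against 54.4% ± 1.3 in N2 az02 (SD, n = 3 each; limma adjusted p = 0.0216), and was called. In mog-5 it was 60.1% ± 3.7, against 58.6% ± 3.0 in N2 az04 (SD, n = 3 each). Retention of this intron and use of the exon share a splice site, so they are not independent measurements.

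The 28 nt exon on chromosome II gave the smallest limma adjusted p among the 145 members tested in the mog-5 comparison. It had 30.1%, 31.3% and 29.2% in mog-5, against 34.65%, 34.8% and 33.5% in N2 az04 (-4.14 points, SE 0.698, limma adjusted p = 0.171). In sacy-1 it had 26.15%, 27.15% and 28.1%, against 28.6%, 31.8% and 29.0% in N2 az02 (-2.65 points, limma adjusted p = 0.460). The mog-5 difference did not hold against N2 az02, where it was 0.383 points. The 80 nt exon at chrII:166071-166150 had 88.8%, 89.0% and 88.6% in mog-5, against 92.8%, 90.8% and 92.35% in N2 az04 (-3.21 points, SE 0.60, limma adjusted p = 0.212). In sacy-1 the 80 nt exon had 92.1%, 90.9% and 92.3%, against 94.1%, 96.7% and 92.7% in N2 az02 (-2.73 points, limma adjusted p = 0.489). Its sacy-1 difference did not hold against N2 az04, where it was -0.203 points, while its mog-5 difference against N2 az02 was -5.74 points. Both exons kept libraries of a group within a few points of each other.

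Beside the 88 nt and 247 nt exons, the members with the smallest interaction p in limma were not past the threshold. A 106 nt exon at chrX:12997672-12997777 was at 99.9% in 9 libraries and at 99.5%, 99.4% and 99.05% in mog-5 (interaction 0.577 points, limma adjusted p = 0.191). The 97 nt exon of chromosome X had an interaction of -17.8 points (SE 5.11, limma adjusted p = 0.284), and the 64 nt exon of chromosome I one of -12.4 points (SE 4.26, limma adjusted p = 0.399).

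The 2 sets of wild-type libraries also differed at some of these exons. N2 az04 and N2 az02 did not overlap in 41 of 142 members tested (28.9%, against 23.2% of all events), with 23 higher (background 12.3%) and 18 lower (background 10.9%) in N2 az04. Among frame-keeping skipped exons the share without overlap was 30.2%. Limma called 0 of the 142, against 0.499% of all events, and 30 had an unadjusted p below 0.05 (21.1%, against 18.7%). The arcsine form also called 0. A difference of 15 points or more was found in 3 members, all lower in N2 az04, against 5.86% of all events in either direction and 2.49% lower.

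The set number also parted the mutant libraries at some exons, at a share close to that of all events. The 6 libraries numbered az04, mog-5 and N2 together, did not overlap with the 6 numbered az02, sacy-1 and N2 together, in 16 of 140 members (11.4%, against 8.99% of all events). For frame-keeping skipped exons this share was 13.8%. By comparison 3 sacy-1 libraries stood apart from the other 9 in 12 members (8.57%, against 5.84%) and 3 mog-5 libraries in 10 (7.14%, against 3.74%). Of the 16, 11 were higher in the libraries numbered az04 (background 4.79%). The labels do not say what the set number stands for, and a comparison of sacy-1 with mog-5 levels carries it along.

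**Figure D5:**
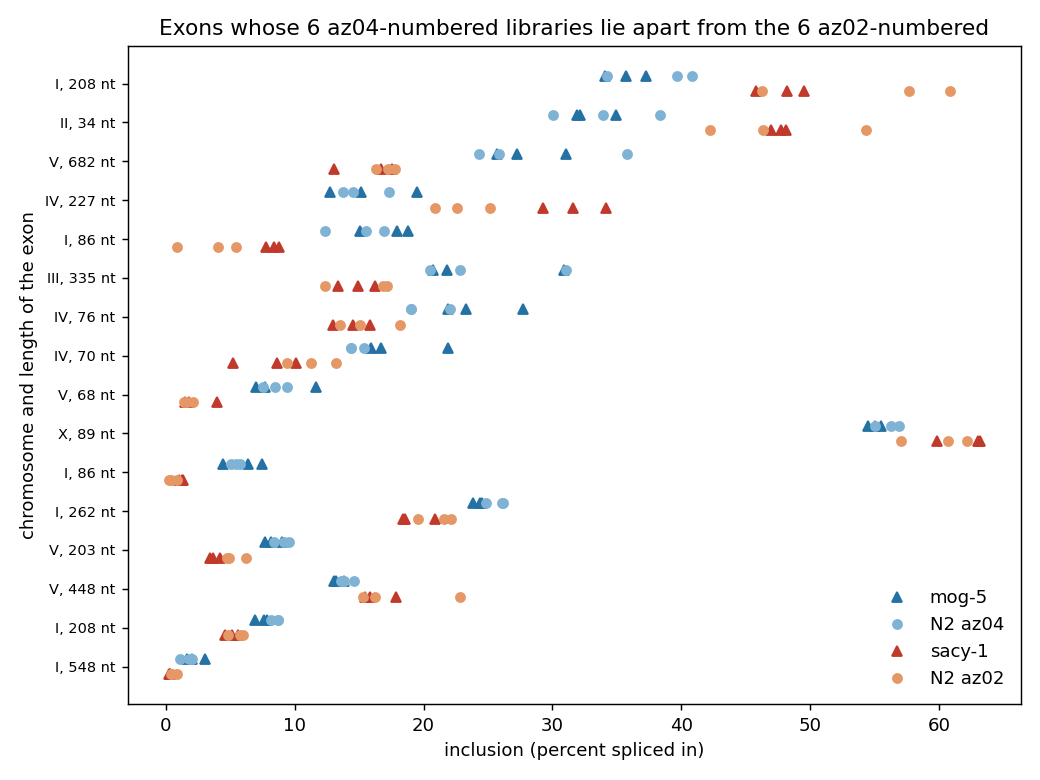
Inclusion in percent by library for the 16 frame-shifting skipped exons whose 6 libraries numbered az04 (mog-5 and N2 az04, blue) did not overlap with the 6 numbered az02 (sacy-1 and N2 az02, red and orange). Triangles are mutant and circles N2 libraries, and rows are ordered by the size of the difference, which reaches -14.4 points at the 208 nt exon of chromosome I.

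That the mutant libraries lie on the side of their set is fixed by the way these 16 were picked, so their values are a description. The 34 nt exon at chrII:4492085-4492118 had 30.02%, 38.4% and 33.9% in N2 az04, against 46.4%, 54.35% and 42.2% in N2 az02 (-13.5 points, SE 4.09, limma adjusted p = 0.190). Its mog-5 values were 31.9%, 32.2% and 34.9% and its sacy-1 values 47.0%, 47.8% and 48.1%. The sacy-1 and mog-5 values overlapped those of the N2 set with the same number. At the 227 nt exon of chromosome IV, also among the 16, sacy-1 lay apart from N2 az02 too, as given above.

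The 682 nt exon at chrV:8422035-8422716 went the other way, with 35.8%, 24.3% and 25.85% in N2 az04, against 17.25%, 17.8% and 16.3% in N2 az02 (11.5 points, SE 3.45, limma adjusted p = 0.186). In mog-5 it had 25.7%, 31.1% and 27.3%, and in sacy-1 17.5%, 16.7% and 13.1%. A 335 nt exon at chrIII:3791262-3791596 had 31.05%, 20.5% and 22.8% in N2 az04, against 12.3%, 16.8% and 17.15% in N2 az02 (9.36 points, SE 3.39, limma adjusted p = 0.256). A 68 nt exon at chrV:6121666-6121733 had 7.56%, 9.36% and 8.47% in N2 az04, against 1.60%, 2.07% and 1.43% in N2 az02 (6.76 points, SE 0.528, limma adjusted p = 0.0310). This mostly skipped exon passed the p threshold but not the minimum of 15 points.

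Of the 16 events, 4 lay in 1 stretch of chromosome I, between positions 14621586 and 14622816, on the minus strand. They describe an 86 nt exon at chrI:14622647-14622732 and a 208 nt exon at chrI:14622293-14622500, each against several skipping introns, and so are not separate findings. In one event the 86 nt exon had 5.02%, 5.46% and 5.75% in N2 az04, against 0.42%, 0.82% and 0.23% in N2 az02 (4.92 points, SE 0.264, limma adjusted p = 0.0180). In another it had 12.3%, 15.55% and 17.0% in N2 az04, against 0.89%, 4.01% and 5.47% in N2 az02 (11.5 points, SE 1.83, limma adjusted p = 0.0643). In sacy-1 the 86 nt exon had 0.99%, 1.26% and 1.35% in the first event and 7.79%, 8.80% and 8.40% in the second. These values lay above every N2 az02 library and below every N2 az04 library in both events.

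The 208 nt exon had 34.3%, 39.6% and 40.8% in N2 az04, against 46.25%, 57.7% and 60.8% in N2 az02 in the event with the larger difference (-16.7 points, SE 4.63, limma adjusted p = 0.169), where the 2 scores summed to 75 to 464.8 of 1000. In the event with higher sums the same exon had 8.70%, 8.18% and 8.66% in N2 az04, against 5.77%, 5.98% and 4.80% in N2 az02 (2.997 points, SE 0.383, limma adjusted p = 0.0508). The direction for this exon therefore differed between the 2 events. They differ in the skipping intron (1061 nt in the first, 1231 nt in the second) and in the exon before it. That exon is the 86 nt exon in the first event and a 70 nt exon in the second. A mutually exclusive exon event at the same place was called between the N2 sets, with means of 39.0% in N2 az04 and 8.14% in N2 az02 (limma adjusted p = 0.0239).

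Other exons parted the N2 sets while a mutant overlapped both, or lay with the other set. The 233 nt exon at chrIV:8929803-8930035 had the largest difference, with 48.6%, 50.9% and 41.45% in N2 az04, against 73.8%, 55.5% and 66.2% in N2 az02 (-18.2 points, SE 5.74, limma adjusted p = 0.199). Its mog-5 libraries, at 63.5%, 46.6% and 56.8%, spanned both. The 28 nt exon at chrX:7940749-7940776 had 61.8%, 64.8% and 67.7% in N2 az04, against 79.1%, 84.95% and 78.7% in N2 az02 (-16.1 points, SE 2.51, limma adjusted p = 0.0625), and its sacy-1 libraries (62.8% to 73.8%) overlapped N2 az04. A 52 nt exon at chrX:10580327-10580378 had 37.8%, 48.8% and 43.2% in N2 az04, against 51.4%, 62.6% and 49.4% in N2 az02 (-11.2 points, SE 4.95, limma adjusted p = 0.335). For these 3 exons a difference between a mutant and N2 turns on which N2 libraries it is set against.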

How the data were processed

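The deposited files were 24 lists of splicing events on genome build ce10, 2 per library, of which the authors' Ensembl archive catalogue holds the skipped exons. Per the file headers, column 6 holds a per mille score for a form, so the deposited unit is a score and not a read count. The scores used here were read from the transcript row of each form, and the exon rows gave the positions. Bowtie2, STAR and SAMtools appear in the submitters' processing notes, with no versions or roles. How the scores were made from reads is not given in the sources used here.

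Inclusion was the included share, in percent, of the included and excluded scores. limma 3.58.1 (lmFit, eBayes, no covariates; R 4.3.3) tested group differences over all events of the Ensembl catalogue listed in all 6 libraries of a comparison, or in all 12 for the interaction, with Benjamini-Hochberg adjustment over all of them. limma draws each event's spread towards that of all events, so an exon with equal values in a group takes its error from the others. Calls needed both a minimum difference of 15 points and an adjusted p under 0.05. Tables and figures were made with Python 3.11.15, pandas 2.3.3 and numpy 2.4.6. The code was tested on simulated data.

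Exons named were those called, the 8 with the largest difference per comparison among those whose groups did not overlap, the 5 with the smallest interaction p, the 6 nearest 50%, the 5 lowest, and the 3 shortest and 3 longest. Events that share introns with these, exons apart in both mutants or by library set, partly listed exons, the 155 nt exon and the 2 exons past the p threshold alone between the N2 sets were chosen after their values were seen. Members, rule and lists were chosen with earlier results of these data known. A list of genes of splicing factors, decay targets and muscle or neuron genes was not used, because the deposited events carry no gene names and the gene table at hand is of another build. No genome of build ce10 was used here, so no sequences are printed. Alternatives were other units (arcsine), fits, filters and N2 sets, and each library left out.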

Additional observations from a re-analysis of the deposited data

Results flagged for a closer look

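The effects of both mutants differed on 1 named exon, the 88 nt exon at chrX:17386800-17386887. Inclusion averaged 34.5% in sacy-1, against 99.6% in N2 az02, a difference of -65.1 points. It averaged 99.5% in mog-5, against 98.4% in N2 az04, which differ by 1.06 points. The difference between these effects was -66.1 points in limma's interaction test (adjusted p = 1.52e-08), with all 3 sacy-1 libraries below the other 9.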

How the results depend on the processing

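The exon called in sacy-1 was called under all alternatives run. Leaving out any library in turn left the number of called members at 1 in sacy-1, 0 in mog-5, 0 between the N2 sets and 1 for the interaction. In these runs the members' share was 0.704% to 0.714% in sacy-1, against 0.208% to 0.586% of all events. For the interaction it was also 0.704% to 0.714%, against 0.208% to 0.335%. Of all events, 0% to 0.04% were called in mog-5 and 0% to 0.374% between the N2 sets. Which N2 libraries were used moved the counts most. Against the other N2 set, called members numbered 4 in sacy-1 (2.82%, against 2.84% of all events under the same setting), 1 in mog-5 (0.704%, against 1.62%) and 16 for the interaction (11.4%, against 8.91%), which then also holds the difference between the N2 sets. Against all 6 N2 libraries sacy-1 had 2 (1.43%, against 0.756%). In 1 fit of all 12 libraries sacy-1 had 2 (1.43%, against 1.3%) and the N2 sets 2 (1.43%, against 1.76%). With no minimum difference the N2 sets had 2 (1.41%, against 1.7%) and the interaction 2 (1.43%, against 0.42%), and with a minimum of 10 points the interaction had 2 (1.43%, against 0.336%). With events without variation left out the N2 sets had 1 (0.763%, against 1.15%). Among the exons described for a comparison and refitted, 6 differences turned sign, each against the other N2 set: 5.28 points for the 28 nt exon of chromosome X in sacy-1, 0.20 for the 131 nt exon of chromosome V, 0.383 for the 28 nt exon of chromosome II and -0.13 for the 88 nt exon of chromosome X in mog-5, and -0.723 in mog-5 and 0.787 for the interaction for the 64 nt exon of chromosome I. The cause was not tested. No paired analysis was possible because the groups compared share no replicate numbers. Depth is unknown, so how far sampling of reads limits a value, above all where the 2 scores sum to little, could not be given. The use of all 6 N2 libraries does not apply to the N2 sets or the interaction.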
